A study of Drosophila melanogaster with 8 samples.

Results

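The regions described here are the centromere-proximal 1 Mb of the left and right arms of Drosophila chromosome 3, as the arrays list them. The members are the probes of arm 3L within 1 Mb of its highest listed position, 3L:22499703-23499714, and those of arm 3R below 1 Mb, 3R:48-999946. They number 5928 of 475395 genomic probes, 2339 on 3L and 3589 on 3R. The genome build of these positions is not given in the sources used here, so no gene is named. Probe sequences and gene positions of that build were not used.

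H3K36me3 was measured by chromatin immunoprecipitation on tiling arrays (ChIP-chip) in whole embryos collected at 2 to 4 hr. The *dkdm4a* mutant carries the SUPor-P P-element insertion KG04636 in Kdm4A, in a y1 w67c23 background. The wild type is the line from which this P-element was excised, and the labels give the same stock for both genotypes. There were 2 biological replicates of the mutant and 2 of the wild type, and every sample was hybridized to 2 array designs. Cy5 carried the immunoprecipitated (IP) DNA, and Cy3 carried the input. Dyes were not swapped, embryos of a cage were pooled, all cell types of the embryo were mixed, and each genotype was 1 line. The whole 3L interval lay on the second array design and the whole 3R interval on the first.

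Trimethylation of histone H3 on lysine 36 is placed by Set2-type methyltransferases that travel with elongating RNA polymerase II, and it marks the bodies of transcribed genes. KDM4A is a demethylase that removes methyl groups from this lysine and binds HP1a, the protein that coats the pericentric heterochromatin. The ends of the arms next to the centromere are where euchromatin passes into that heterochromatin, which is rich in repeats and still holds active genes. The comparison of the mutant with the wild type asks where this mark changes when the demethylase is lost.

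The level of a probe is log2 of IP over input minus the median of its array, so 0 is the level of the median probe. A change shared by all probes is removed by this centring. A rise or fall in the mutant is therefore relative to the median probe and not an absolute amount of the mark. The paper reports a higher bulk level of H3K36me3 in mutant embryos by western blot. Per its methods, those histones came from older embryos than the ones used for the arrays. Median probe brightness over the 8 arrays was 83.4 to 130.5 units in the IP channel and 608.8 to 988.7 units in the input channel. In the intervals, 89.9% to 96.7% of probes were well above background in the IP channel, depending on the sample and arm, and 97.8% to 99.9% in the input channel. Replicate 2 had higher levels than replicate 1 in both genotypes in both intervals. Replicates of a genotype correlated across the probes of an interval with r between 0.95 and 0.97, where probes are not independent replicates.

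The 3L interval was covered more thinly than the rest of its arm, with 233.9 against 403.3 probes per 100 kb. It held 26 gaps of over 5 kb, the largest of 40473 bp, and the 500 kb next to the centromere held 620 of its probes against 1719 in the outer 500 kb. The 3R interval had 358.9 probes per 100 kb against 404.0 in the rest of 3R, and its largest gap was 8455 bp. After outlier spots were left out, 2336 probes on 3L and 3587 on 3R were used.

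H3K36me3 in the 3R interval stood above the rest of the arm. It averaged 1.03 and 1.24 in mutant replicates 1 and 2, and 1.07 and 1.27 in wild type replicates 1 and 2. The rest of 3R averaged 0.66 and 0.82 in the mutant and 0.64 and 0.79 in the wild type. The interval was higher in 4 of 4 samples, by 0.37 and 0.43 in the mutant and by 0.43 and 0.48 in the wild type. The difference was 0.41 when the rest of 3R was restricted to probes of the first array design.

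On 3L the mean of the interval as a whole was close to that of its arm. It averaged 0.68 and 0.89 in the mutant and 0.66 and 0.88 in the wild type, where the rest of 3L averaged 0.66 and 0.83 in the mutant and 0.65 and 0.82 in the wild type. The interval was above the rest of 3L by 0.04 as a mean over the 4 samples, by 0.25 with medians over probes and by 0.22 with loess normalization, and the difference was -0.10 with normexp. The inner part was higher than the interval's mean. The 500 kb next to the centromere averaged 1.36 and 1.78 in the mutant and 1.18 and 1.53 in the wild type, and the outer 500 kb averaged 0.44 and 0.57 in the mutant and 0.47 and 0.64 in the wild type. The same division on 3R gave 1.45 and 1.74 in the mutant and 1.48 and 1.73 in the wild type for the inner 500 kb, and 0.65 and 0.80 in the mutant and 0.71 and 0.86 in the wild type for the outer 500 kb. On both arms, in all 4 samples, the 500 kb next to the centromere had the higher level of IP over input. On 3L the log2 input signal there was -0.48 and -0.96 in the mutant and -0.47 and -0.999 in the wild type. In the outer 500 kb of 3L it was 0.02 and -0.07 in the mutant and 0.03 and -0.11 in the wild type. The part of this lower input in the 3L difference was not tested. The IP signal of 85.65% to 93.06% of inner 3L probes was well above background, against 91.1% to 96.04% of outer ones.

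The level was uneven along both intervals at a scale of 100 kb. On 3L the bins from 200 to 300 kb and from 400 to 500 kb from the centromere side were the highest, at 2.50 and 3.10 in the mutant and 2.48 and 2.96 in the wild type for the nearer one. The bin from 900 to 1000 kb was the lowest, at -0.51 and -0.59 in the mutant and -0.51 and -0.50 in the wild type. Of the 225 bins in the rest of 3L, 8 had a higher level than the bin from 200 to 300 kb, and all 225 had a higher level than the bin from 900 to 1000 kb. On 3R the bin from 200 to 300 kb was the highest, at 2.47 and 2.91 in the mutant and 2.46 and 2.84 in the wild type. The bin from 800 to 900 kb was the lowest on 3R, at -0.43 and -0.50 in the mutant and -0.56 and -0.51 in the wild type.

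**Figure D1:**
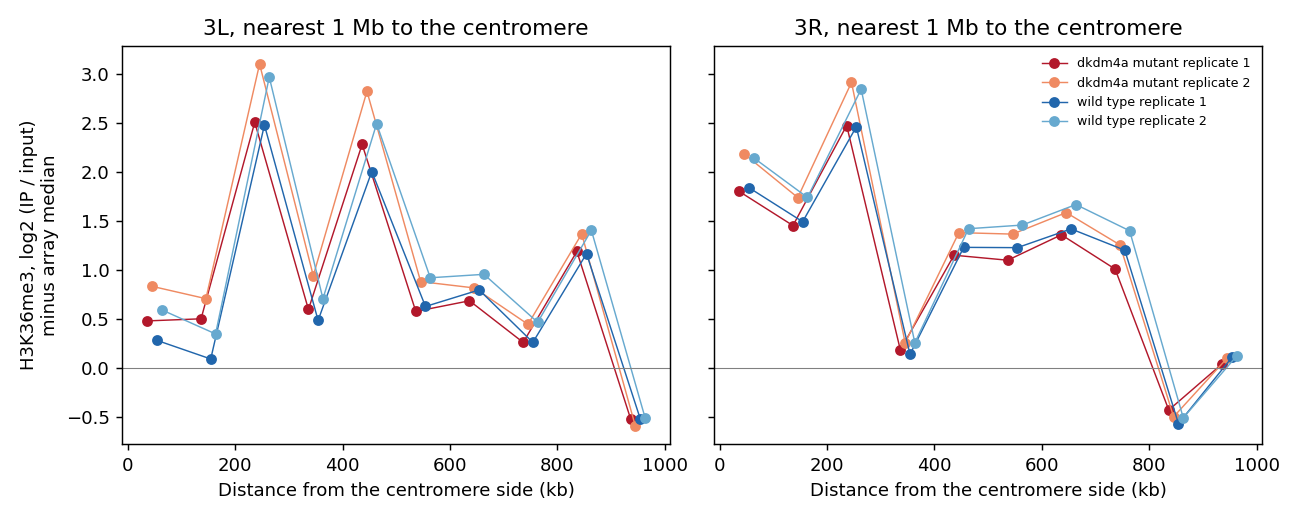
Mean H3K36me3 level (log2 IP over input minus the array median) of each 100 kb bin against distance from the centromere side in kb, for each of the 4 samples on 3L and 3R. The 4 samples trace the same peaks and troughs, with the highest bin of each arm from 200 to 300 kb and the 3L bins nearest to the centromere higher in both mutant samples than in the wild type sample of the same replicate.

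At a finer scale the mark lay in separate enriched stretches. A stretch was a run of at least 5 probes whose moving average over 5 probes exceeded 1 in the mean of the 4 samples, with gaps of at most 2000 bp. The 3L interval held 34 stretches with 27.4% of its probes, and the 3R interval held 35 with 34.3% of its probes. The rest of 3L had 24.2% of its probes in stretches and the rest of 3R had 24.6%. The widest stretch of the 3R interval was 29323 bp, at 3R:748257-777579, and the widest of the 3L interval was 17522 bp, at 3L:22658401-22675922.

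The windows of 2 kb with the highest levels differed little between the genotypes. On 3L the highest, 3L:22810001-22812000, had 5.52 and 6.12 in the mutant and 5.55 and 6.15 in the wild type. On 3R the highest, 3R:256001-258000, had 5.81 and 6.42 in the mutant and 5.84 and 6.35 in the wild type. The other 4 of the 3 highest windows per arm differed between the genotypes by -0.09 to -0.01 on the log2 scale. None of these 6 windows was called, with adjusted p of 1 in limma for each.

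Averaged over the whole intervals, the genotypes were nearly equal. The mutant minus wild type difference was 0.03 in replicate 1 and 0.02 in replicate 2 on 3L, and -0.04 and -0.03 on 3R. The exact permutation test over the 4 samples, two-sided, gave p = 0.667 for both arms, and this design cannot give less than 0.333. The SD between replicates was 0.15 in the mutant and 0.16 in the wild type on 3L, and 0.15 in the mutant and 0.14 in the wild type on 3R, and it includes the shift between replicates that both genotypes shared. Within replicates, each arm's difference had the same sign in both, and the exact permutation test within replicates gave p = 0.5, the smallest it can give. The sign of both means depended on the processing: with the normexp background correction the 3L mean was -0.066 and the 3R mean 0.31. The 3L mean was also negative without mutant replicate 2 (-0.083) or wild type replicate 1 (-0.088), and the 3R mean was positive without mutant replicate 1 (0.071) or wild type replicate 2 (0.063).

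With all samples kept and without the normexp background correction, the averaged changes of the inner and the outer 500 kb of 3L differed in direction. In the 500 kb next to the centromere the mutant was above the wild type by 0.18 in replicate 1 and by 0.25 in replicate 2, and in the outer 500 kb it was below by -0.03 and -0.07. The division was chosen after these data had been seen. The inner minus outer difference of the change was 0.21 in replicate 1 and 0.32 in replicate 2, with an exact permutation p of 0.333, the smallest that 2 against 2 samples allow. The change in the inner 500 kb was above that in the rest of 3L by 0.17 and 0.25, with an exact permutation p of 0.667. The input signal of the inner 500 kb differed between the genotypes by -0.02 in replicate 1 and 0.04 in replicate 2. The averaged change of the inner 500 kb was 0.22, and leaving out mutant replicate 1 gave 0.43, mutant replicate 2 gave 0.0046, wild type replicate 1 gave 0.040 and wild type replicate 2 gave 0.39. The normexp background correction turned it to -0.061, and the outer 500 kb was then at -0.068, the same direction. The averaged change of the outer 500 kb was -0.05, but 0.018 without mutant replicate 1 and 0.038 without wild type replicate 2. With scaling by the median absolute deviation, the outer 500 kb was at 0.002 in replicate 1 and -0.058 in replicate 2.

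In the inner 500 kb of 3R the mutant minus wild type difference was -0.02 in replicate 1 and 0.01 in replicate 2. The outer 500 kb of 3R was lower in the mutant, relative to the median probe, by -0.07 in both replicates. The change in the inner 500 kb of 3L exceeded that in the inner 500 kb of 3R by 0.20 in replicate 1 and 0.24 in replicate 2, with an exact permutation p of 0.333. In the proximal 1 Mb of 2L the mutant minus wild type difference was 0.01 and -0.03, and in that of X it was 0.00 and -0.01. The 3L interval of the same width, 1 Mb, had 0.03 and 0.02. The inner 500 kb of 2L and of X were not measured apart, so they cannot be set against that of 3L. On the scaffold listed as 3h, the heterochromatin of chromosome 3, the difference was 0.23 and 0.34, and the inner 500 kb of 3L lay below it by -0.05 and -0.09, with an exact permutation p of 0.667.

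In bins of 100 kb, all 5 bins of the inner 500 kb of 3L were higher in the mutant in both replicates, against 53.2% of all 1286 bins. The difference in the bin from 0 to 100 kb was 0.20 and 0.24, from 100 to 200 kb it was 0.41 and 0.36, and from 200 to 300 kb it was 0.03 and 0.13. In the bin from 300 to 400 kb it was 0.11 and 0.23, and from 400 to 500 kb it was 0.28 and 0.33. The bin from 100 to 200 kb was the only one of the 5 in which both mutant samples, 0.50 and 0.71, lay above both wild type samples, 0.09 and 0.35, a separation that 15.9% of all bins showed. Of the 225 bins in the rest of 3L, none had a higher mean change than 4 of these 5, and 19 were above the bin from 200 to 300 kb. Among all 1286 bins, ranked from the largest mean change down, the 5 stood at 83, 38, 266, 103 and 61, in order of distance. They rest on 58, 91, 138, 200 and 132 probes, where the rest of 3L had 403.3 per 100 kb.

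No bin of either interval passed limma's test at an adjusted p of 0.05 without the replicate block, which 0.467% of the 1286 bins passed as higher in the mutant and 0% as lower. At an unadjusted p under 0.05, 1 of the 20 bins was higher, the 3L bin from 100 to 200 kb (adjusted p = 0.303 in limma), where 5.44% of all bins were higher and 0.156% lower. Fitting the replicate number as a block takes out any shift between the replicates, which differ in biological sample as well as in scan day. The block fit called 4 of the inner 3L bins as higher, all but that from 200 to 300 kb. Of all bins, it called 25.3% as higher. It called 1 outer 3L bin as lower, from 600 to 700 kb at -0.12, and 3 bins of 3R as lower, from 500 to 800 kb at -0.11, -0.07 and -0.17, where 6.07% of all bins were called lower. The 3R bin from 800 to 900 kb was called higher at 0.07. The block fit leaves 1 residual degree of freedom per bin.

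**Figure D2:**
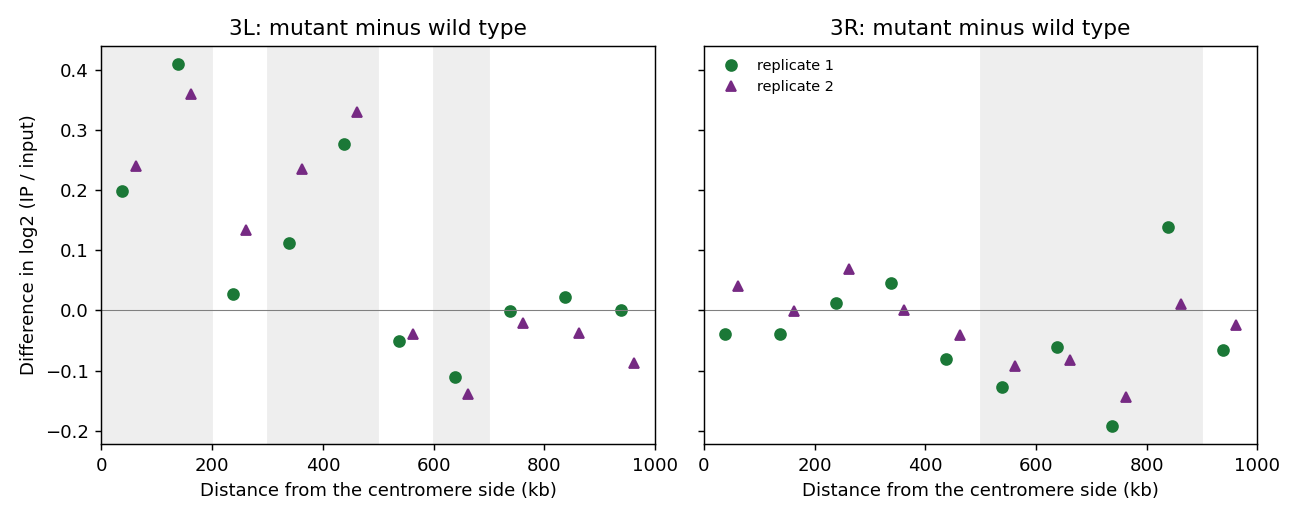
Mutant minus wild type difference in mean log2 IP over input of each 100 kb bin against distance from the centromere side in kb, for replicate 1 (circles) and replicate 2 (triangles), with grey bands on the bins called with the replicate block. All 5 bins of the inner 500 kb of 3L lie above 0 in both replicates, and the lowest bin is that from 700 to 800 kb on 3R, at -0.19 and -0.14.

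The test in windows of 2 kb with at least 3 probes found few changes. On 3L, 4 of 312 windows rose and 0 fell at an adjusted p of 0.05 in limma, where 0.354% of all 57266 windows rose and 0.173% fell. On 3R, 1 of 461 windows rose and 1 fell. At an unadjusted p under 0.05, limma gave 25 windows up and 6 down on 3L and 8 up and 11 down on 3R, where 3.74% of all windows were up and 2.07% down. Each of the 4 windows that rose on 3L lay in the inner 500 kb, which held 94 of the 312 windows.

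The largest change was at 3L:23330001-23332000, 169 kb from the centromere side. It had 1.63 and 1.59 in the mutant and -0.45 and -0.10 in the wild type, so both mutant samples were above the median probe and both wild type samples below it. The rise was 1.88 with an SE of 0.23 and an adjusted p of 8.27e-13 in limma. All 4 of its probes were higher in the mutant in both replicates, by 1.28 to 2.40. The window was picked by the mean of these probes, so their agreement is not separate support. This window has under 5 probes and was named after its values were seen. With loess normalization its difference was 0.15 and it was not called. Its input signal was higher in the mutant by 0.26, which was called with the replicate block (adjusted p = 5.93e-06 in limma, against 1 without the block). The part of the input in the change was not tested.

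A second group of called windows lay 421 to 423 kb from the centromere side. The window 3L:23078001-23080000 had 2.10 and 2.52 in the mutant and 1.26 and 1.06 in the wild type, a rise of 1.15 with an SE of 0.30 (adjusted p = 0.0273 in limma, 6 probes). The adjoining window 3L:23076001-23078000 had 1.68 and 2.38 in the mutant and 0.79 and 1.21 in the wild type, a rise of 1.03 with an SE of 0.28 (adjusted p = 0.0498 in limma, 3 probes, named after its values were seen). Mutant and wild type samples did not overlap in either window, which follows largely from picking windows by their call in these samples. Both belong to the enriched stretch 3L:23076612-23084652, whose 24 probes averaged 2.39 and 2.98 in the mutant and 1.72 and 2.17 in the wild type.

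At 3L:23016001-23018000, 483 kb from the centromere side, the mark was at 1.26 and 1.35 in the mutant and at -0.10 and 0.63 in the wild type. The wild type replicates differed more from each other than the mutant ones. That the groups did not overlap follows largely from picking a called window. The rise was 1.04 with an SE of 0.24 (adjusted p = 0.00427 in limma, 6 probes). All 6 probes were higher in the mutant in both replicates, but the window was picked by their mean. The probe at 3L:23016394-23016453 was well above background in the IP channel in only 1 of the 4 samples.

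On 3R the window that rose was 3R:200001-202000, with 0.68 and 1.07 in the mutant and -0.19 and 0.01 in the wild type. The rise was 0.97 with an SE of 0.21 (adjusted p = 0.00254 in limma, 5 probes), and its input differed by 0.00. Its probe at 3R:201236-201295 was well above background in the IP channel in only 2 of the 4 samples. The window that fell was 3R:332001-334000, with -1.06 and -0.47 in the mutant and -0.09 and 0.23 in the wild type. The fall was -0.83 with an SE of 0.18 (adjusted p = 0.00142 in limma), on 3 probes, of which 1 was not well above background in the IP channel in any sample. It was named after its values were seen.

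**Figure D3:**
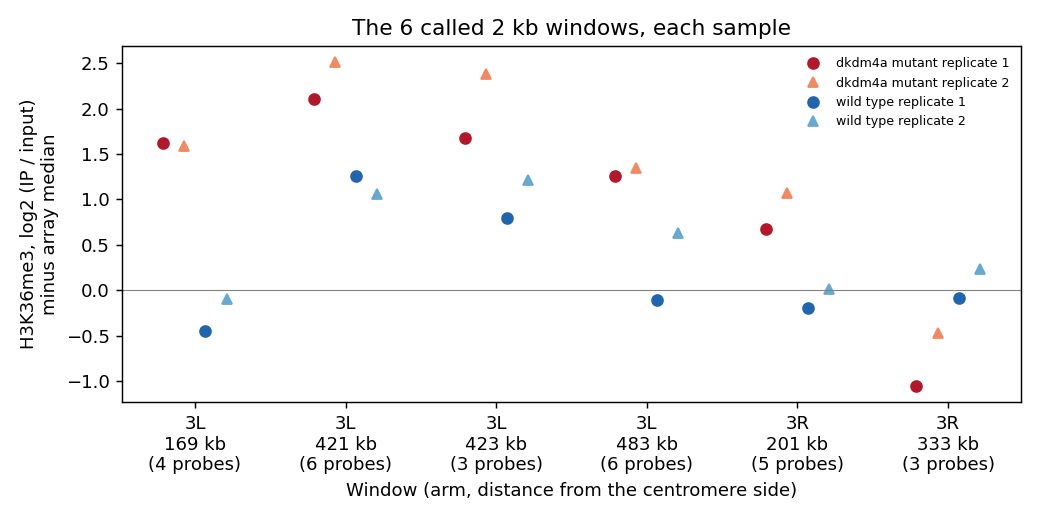
H3K36me3 level (log2 IP over input minus the array median) in each of the 4 samples for the 6 called windows of 2 kb, ordered by arm and distance from the centromere side. Both mutant samples lie above both wild type samples in 5 windows, and below both in the window at 333 kb of 3R. The windows were picked by calls on these same samples, so this separation is not separate support.

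These calls depend on how the spread is estimated. With the replicate block, 34 windows of 3L were called higher and 6 lower, and 15 windows of 3R higher and 32 lower, where 5.40% of all windows were called higher and 3.73% lower. Of the 34 on 3L, 26 were in the inner 500 kb, where no window was called lower. Of the 32 lower windows on 3R, 22 were in the outer 500 kb, where 1 was called higher. Without a variance trend, limma called 0 windows in either interval. With loess normalization none of the 6 windows was called, and with normexp only 3L:23330001-23332000 was, at 1.14. Normexp gave 0.49 at 3L:23078001-23080000, 0.39 at 3L:23076001-23078000, 0.41 at 3L:23016001-23018000, 0.48 at 3R:200001-202000 and -0.24 at 3R:332001-334000, the last of which was at -0.41 with the deposited log2 ratios. When samples were left out, the call at 3L:23330001-23332000 was kept without any 1 of the 4, whereas the calls at 3L:23076001-23078000 and 3L:23078001-23080000 were lost without any 1 of them. The call at 3L:23016001-23018000 was lost without either mutant replicate or wild type replicate 1. On 3R, the rise at 3R:200001-202000 was lost without mutant replicate 2 or either wild type replicate, and the fall at 3R:332001-334000 without mutant replicate 1 or wild type replicate 2.

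The windows of the inner 500 kb of 3L leaned to one side. Of its 94 windows, 51 (54.3%) were higher in the mutant in both replicates and 15 (16.0%) lower in both, where 33.3% of all windows were higher in both and 27.8% lower in both. In the outer 500 kb 46 of 218 were higher in both and 96 (44.0%) lower in both. In the 3R interval 114 of 461 windows (24.7%) were higher in both and 157 (34.1%) lower in both.

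The windows of the inner 500 kb of 3L are given by their level. Of the 62 windows with a mean level from 0 to 2, 38 were higher in the mutant in both replicates and 6 lower, and their median change was 0.25. The 25 windows with a level of 2 or more had 12 higher and 8 lower in both, with a median change of 0.02. Of all windows, 33.3% were higher in both and 27.8% lower in both. With the replicate block, 20 of the 62 and 6 of the 25 were called higher and none lower, where 5.40% of all windows were called higher and 3.73% lower. Shares of all windows at these levels were not counted. On 3L the SE with the block was 0.145 in a window of level 0.67 and 0.046 in one of level 5.84, so its calls are not comparable between levels. The SE without the block rises with the level of a window, so the 4 windows called without it, all with levels from 0 to 2, are no measure of where the differences lie. The difference between these levels was not tested.

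**Figure D4:**
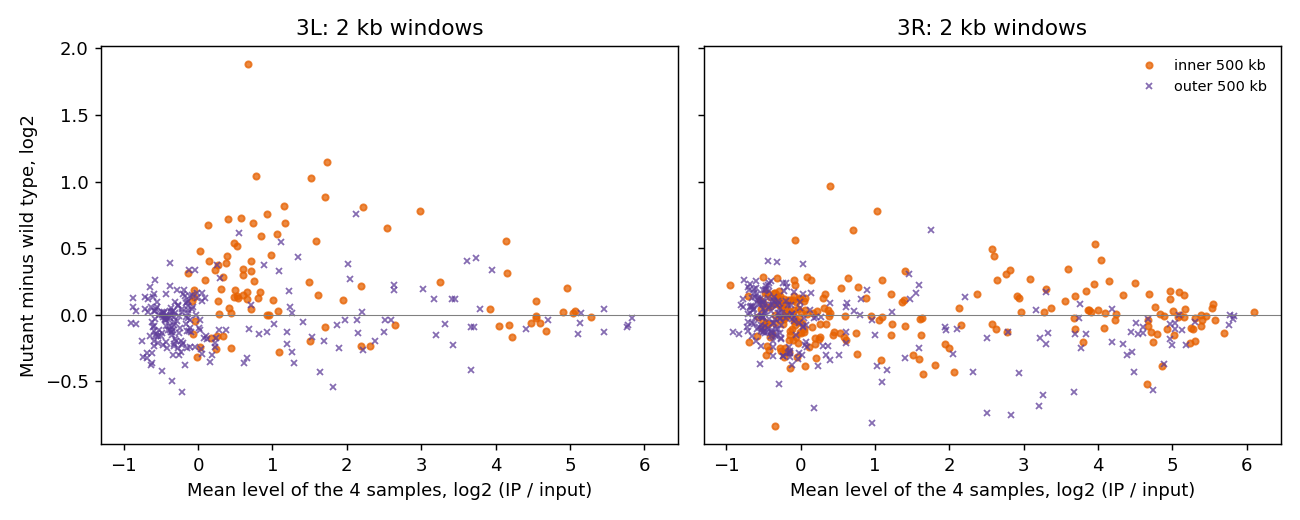
Mutant minus wild type difference in log2 IP over input of each 2 kb window against its mean level over the 4 samples, for the inner (circles) and outer (crosses) 500 kb of 3L and 3R. On 3L the inner windows with levels from 0 to 2 reach differences up to 1.88, and the windows with the highest levels lie near 0 on both arms.

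Differences that did not pass the test are given as values. On 3L the largest was at 3L:23084001-23086000 in the inner 500 kb, with 1.85 and 2.46 in the mutant and 1.14 and 1.40 in the wild type on 3 probes (adjusted p = 0.234 in limma). Windows at 3L:23176001-23178000, 3L:23022001-23024000 and 3L:23038001-23040000, also in the inner 500 kb and with 3 to 4 probes, differed by 0.82, 0.81 and 0.78. These 4 were named after their values were seen. Among uncalled windows of at least 5 probes, the largest positive difference was at 3L:22720001-22722000, which had 2.17 and 2.83 in the mutant and 1.49 and 1.99 in the wild type (adjusted p = 0.612 in limma). The 3 windows with the largest negative difference on 3L, all 553 to 679 kb from the centromere side, were at -0.58, -0.54 and -0.50. On 3R, 3R:238001-240000 had 1.28 and 1.55 in the mutant and 0.59 and 0.68 in the wild type (adjusted p = 0.184 in limma), and 3R:374001-376000 differed by 0.56. The largest negative difference among windows of at least 5 probes was at 3R:522001-524000, with 0.57 and 0.54 in the mutant and 1.31 and 1.42 in the wild type (adjusted p = 0.122 in limma).

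Peaks of the mutant over wild type track were called in each replicate and kept where both replicates overlapped. The 3L interval had 12 increased peaks, 10 of them in the inner 500 kb, and 3 decreased peaks, all in the outer 500 kb. The 3R interval had 2 increased peaks, both in the inner 500 kb, and 9 decreased peaks, 6 of them in the outer 500 kb. Parts of increased peaks fell in 6.73% of the 3L windows and 0.651% of the 3R windows, against 3.38% of all windows. These shares were counted before increased peaks were required to have more probes above than below 0 in the mutant. All 12 increased peaks of 3L and both of 3R met this requirement. The share of all windows after it was not counted. Parts of decreased peaks fell in 1.28% of the 3L windows and 4.56% of the 3R windows, against 2.76% of all windows. Increased peaks of 3L were 601 to 3769 bp wide. In 11 of the 12, the wild type mean was above 0, the level of the median probe. Of all probes of the inner 500 kb of 3L, where 10 of these peaks lay, 77.2% and 84.2% were above 0 in the wild type. The count is thus no trait of the peaks alone.

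The longest increased peak of 3L, 3L:23076612-23080380, had 2.06 and 2.60 in the mutant and 1.17 and 1.27 in the wild type over 11 probes. The increased peak with the highest level, 3L:23277042-23278977, had 3.87 and 4.56 in the mutant and 3.11 and 3.56 in the wild type. Peaks at 3L:23186819-23189384, 3L:23198757-23199773 and 3L:23203209-23205567 were neighbours. The middle one of these had 1.85 and 2.18 in the mutant and 0.97 and 1.30 in the wild type. Peak calls carry no p-value, and at a threshold of 3 SD the 3L interval had 5 increased peaks, whereas the normexp background correction left 0.

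The 9 decreased peaks of 3R were 0 with normexp, 3 with loess normalization and 4 at a threshold of 3 SD. Of the 9, 4 lay between positions 751293 and 771496, in the widest enriched stretch of the interval. The 120 probes of that stretch averaged 2.99 and 3.63 in the mutant and 3.45 and 3.98 in the wild type, a difference of -0.45 in replicate 1 and -0.35 in replicate 2. The input differed by -0.03 and 0.05. The widest of the 4 peaks, 3R:751293-757400, had 3.17 and 3.75 in the mutant and 3.76 and 4.23 in the wild type.

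From 3R:740001-772000, 16 consecutive windows were lower in the mutant in both replicates, by -0.75 to -0.15, which was the longest such run in either interval. None of the 16 was called without the block. In limma 3 had an unadjusted p under 0.05, where 2.07% of all windows were lower, and 10 were called with the block, where 3.73% were called lower. The run was picked because each window was lower in both replicates, so these counts are not separate support. How often runs of this length occur outside the intervals was not counted. At 3R:768001-770000 the mark was at 2.16 and 2.75 in the mutant and at 2.97 and 3.44 in the wild type (adjusted p = 0.855 in limma). The far end of the stretch did not share the difference: 3R:774001-776000 had 3.98 and 5.00 in the mutant and 3.96 and 5.14 in the wild type. The direction at 3R:768001-770000 turned under the normexp background correction, at 0.24. The longest run of listed windows higher in both replicates was 6 windows on 3L, of which 5 adjoin one another from the window 3L:23076001-23078000 to the window 3L:23084001-23086000 and 1 lies beyond a gap without windows, at 3L:23108001-23110000.

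**Figure D5:**
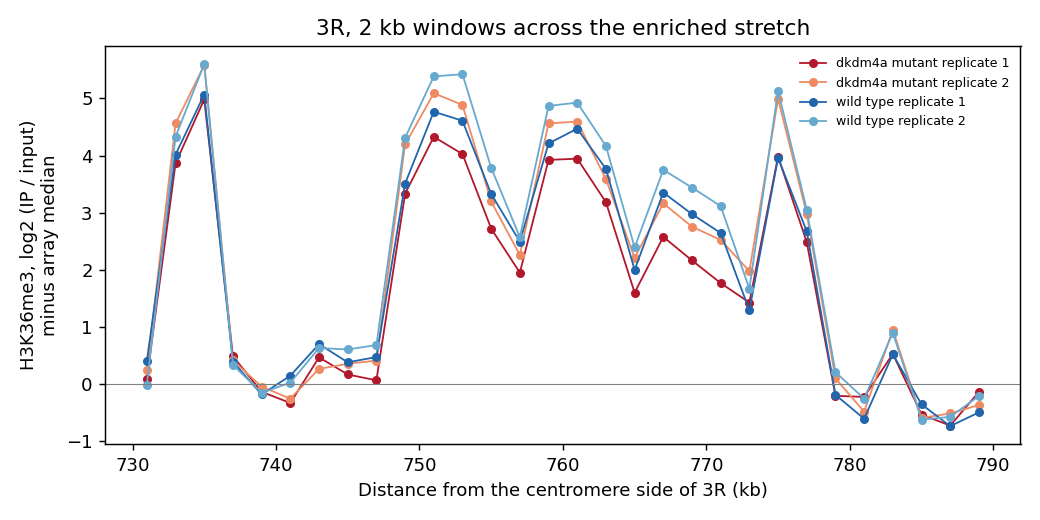
H3K36me3 level (log2 IP over input minus the array median) of each 2 kb window of 3R around the widest enriched stretch, against distance from the centromere side in kb, for each of the 4 samples. Each mutant sample runs below the wild type sample of its replicate from 741 to 771 kb, and the samples of a replicate meet again at 775 kb, with 3.98 against 3.96 and 5.00 against 5.14.

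Input DNA was tested in the same windows. Limma called 0 of the windows in either interval as differing in input without the block, where 0% of all windows were called, with 1 window in each at an unadjusted p under 0.05, where 2.38% of all windows were. With the block it called 32 windows on 3L and 31 on 3R, where 14.3% of all windows were called. Of the 6 windows called for H3K36me3, none was called for input without the block and 1, 3L:23330001-23332000, was called with it.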

How the data were processed

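The authors deposited the output of the scanner software (Agilent Feature Extraction 10.5.1.1) for 8 arrays. The deposited intensities of the IP channel (Cy5) and of the input channel (Cy3) had been corrected for background, detrended and scaled between dyes by that software, per the file headers. The authors also deposited log2 ratios, which equal the background-subtracted ratio plus a constant for each array and were used as an alternative. The labels name limma for the authors' processing. DNA was amplified by ligation-mediated PCR before labelling.

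Here, log2 of processed IP over input was centred on each array's median, without loess or quantile normalization. Probes with an outlier flag in any sample (368 of 475395) were left out. Windows of 2 kb with at least 3 probes and bins of 100 kb with at least 20 probes were fitted across the genome with limma 3.58.1 in R 4.3.3 (lmFit, eBayes with a variance trend), with Benjamini-Hochberg adjustment at 0.05. Peaks followed the study's methods, with a moving average over 5 probes, thresholds of 1 and 2 SD over the average of the smoothed values above 0, at least 3 probes and gaps of at most 1000 bp. Increased peaks also needed more probes above than below 0 in the mutant. Scripts were tested on simulated data.

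Replicate numbers pair the samples, since per the file headers the mutant and wild type arrays with the same number share a scan day. The differences between replicates correlated between genotypes with r of 0.653 over all 2 kb windows. Labels call the replicates biological and say no more of their source. The number of arrays limits the precision.

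Windows named are, per arm, those called with at least 5 probes and moving the same way in each replicate, the 3 largest differences where fewer were called, and the 3 highest levels. Members, lists and tests were chosen with earlier results of these data known. Alternatives were normexp (offset 50) and loess (span 0.3), no centring, scaling by the median absolute deviation, the deposited log2 ratios, probe filters, other window sizes, no variance trend, the replicate block and leaving out samples.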

Additional observations from a re-analysis of the deposited data

How the results depend on the processing

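With 2 samples per genotype, no permutation test here can reach 0.05, so the interval means carry no evidence of stability, and the few called windows rest on a spread estimated across windows. The pericentromeric probes are sparse on 3L, and several calls rest on 3 to 6 probes. Where a setting moved a value, the cause was not tested, except that leaving out a sample unbalances the replicates, whose levels differ.

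Increased windows on 3L numbered 4. They were 1 with normexp, 0 with loess, 9 without centring, 10 with MAD scaling, 2 with the deposited log2 ratios, 34 with the replicate block, 0 without a variance trend, 2 with at least 5 probes, and 1 to 2 when leaving out 1 sample. Increased windows on 3R numbered 1. They were 0 with loess, 2 without centring, 2 with MAD scaling, 15 with the replicate block, 0 without a variance trend, 0 in 5 kb windows, and 0 to 1 when leaving out 1 sample. Decreased windows on 3L numbered 0 and were 6 with the replicate block. Decreased windows on 3R numbered 1. They were 0 with normexp, loess, the deposited log2 ratios, no variance trend or at least 5 probes, 3 without centring, 2 with only inputs well above background, 32 with the replicate block, and 0 to 1 when leaving out 1 sample. Called 100 kb bins numbered 0 on each arm. On 3L they were 2 without centring, 2 with MAD scaling, 1 with only inputs well above background and 5 with the replicate block, and on 3R they were 4 with the replicate block. Windows differing in input numbered 0 on each arm, were 32 on 3L and 31 on 3R with the replicate block, and 0 to 1 on 3L when leaving out 1 sample.

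The mean change of the 3L interval was 0.02, but -0.0661 with normexp, -0.0014 with loess, -0.0184 without centring, and -0.0881 to 0.132 when leaving out 1 sample. Relative to the rest of 3L it was 0.02, but -0.0066 with loess and -0.00716 to 0.0403 when leaving out 1 sample. The mean change of the 3R interval was -0.04, but 0.31 with normexp, 0.019 with MAD scaling, and -0.144 to 0.0707 when leaving out 1 sample. Relative to the rest of 3R it was -0.059, but 0.20 with normexp, -0.029 with MAD scaling, -0.025 over 500 kb and -0.088 to -0.029 when leaving out 1 sample. The mean change of the inner 500 kb of 3L was 0.22, but -0.061 with normexp, and 0.0046 to 0.427 when leaving out 1 sample. That of the outer 500 kb was -0.05, and -0.134 to 0.0382 when leaving out 1 sample. The level of the 3L interval minus the rest of 3L was 0.04, but -0.10 with normexp, 0.22 with loess, 0.72 over 500 kb and 0.25 as a median. That of 3R was 0.43, but 0.28 with normexp, 0.24 with loess, 0.87 over 500 kb and 0.29 as a median.

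Increased peaks on 3L numbered 12. They were 0 with normexp, 7 with loess, 5 at 3 SD, 1 with the mean and SD taken before smoothing, and 19 to 21 in a single replicate. Increased peaks on 3R numbered 2. They were 1 without centring, 6 with MAD scaling, 1 at 3 SD, 0 with the mean and SD taken before smoothing, and 3 to 6 in a single replicate. Decreased peaks on 3L numbered 3. They were 7 with normexp, 0 with loess, 5 without centring, 5 with only inputs well above background, 6 without probes of differing input, 0 at 3 SD, 0 with the mean and SD taken before smoothing, and 10 to 16 in a single replicate. Decreased peaks on 3R numbered 9. They were 0 with normexp, 3 with loess, 5 with MAD scaling, 5 with the deposited log2 ratios, 4 at 3 SD, 0 with the mean and SD taken before smoothing, and 22 to 34 in a single replicate.

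With normexp, the uncalled window 3R:374001-376000 was at -0.0579, 3R:768001-770000 at 0.245 and 3R:770001-772000 at 0.0407, each opposite in sign to its value without it. The called window 3L:23330001-23332000 passed in 12 of 14 alternatives and 3L:23016001-23018000 in 8 of 15, and all 6 called windows kept their direction in the alternatives run, though not their size. The smallest differences were 0.15 at 3L:23330001-23332000 (loess), 0.49 at 3L:23078001-23080000, 0.39 at 3L:23076001-23078000 and -0.24 at 3R:332001-334000 (each with normexp).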
